A study of Mus musculus with 10 samples.

Results

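RNA precipitated with an antibody against N6-methyladenosine (m6A) was examined in mouse embryonic stem cells labelled Mettl3 KO, to describe which transcripts and which places along them were still enriched over the unprecipitated RNA. The description rests on 4 of the 10 libraries of the series: the IP and the input of Mettl3 KO replicate 1, and the IP and the input of Mettl3 KO replicate 2. They were set against the IP and input libraries of 2 WT replicates, which the labels call mettl3 WT. All are of strain J-1 and were grown without feeder cells. The labels name no further allele, no KO clone and no deleted exon, and the growth notes also mention differentiation in medium without LIF, without saying that any of these libraries were made that way. An earlier pair of 1 IP and 1 input, with no genotype in the labels, belongs to neither group. It was used to sort genes and windows, to choose the genes of 1 alternative centring, and beside the shares at transcript starts. Nothing says that replicates came from separate cultures, so p-values measure the spread between these libraries. Genes were kept where the mean RPKM of the 2 WT inputs was at least 1. That left 11306 of 30419 genes and 769867 of 1510223 exon windows, each of about 49.5 bases of exon by the lengths of 318 single-exon genes.

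m6A is the most common internal mark of messenger RNA. It is written during transcription by a nuclear complex in which METTL3 is the catalytic subunit, METTL14 its RNA-binding partner and WTAP, ZC3H13, RBM15 and CBLL1 (HAKAI) accessory subunits, mostly within long internal exons and near stop codons. Other enzymes also place N6-methyl groups on adenosine: METTL16 acts on U6 snRNA and on the Mat2a transcript, and PCIF1 acts on an adenosine next to the cap, where the product carries a second methyl group on the ribose and is bound by the same kind of antibody. YTH-domain proteins read the mark and FTO and ALKBH5 can remove it.

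The KO IP libraries were shallow. From the step of which their low values are multiples, KO IP 1 and KO IP 2 had 40.5% and 38.1% of the depth of WT IP 1, and WT IP 2 had 44.8% of it. KO input 2 had 55.2% of the depth of KO input 1, and the WT inputs had 84.9% and 88.6% of it. Coverage was 0 in 54.2% and 43.3% of the expressed windows in the KO IPs, against 18.5% and 40.9% in the WT IPs. Mettl3 itself had a mean input coverage of 3.14 and 3.38 in KO, against 4.79 and 4.67 in WT, and each of its 11 exons was covered in both KO inputs. The RNA thus does not show the loss of Mettl3. Since no deleted exon is named and the protein was not analysed here, KO stands below for the libraries so labelled. The 10 embryonic stem cell markers were all above the expression filter, and their summed input coverage was 2269 and 2127 in KO, against 2791 and 2875 in WT. In bulk RNA, fewer cells of a type and less RNA per cell cannot be told apart. The 8 markers of fibroblasts, which can be used as feeder cells, summed to 3.39 and 3.13 in KO, against 3.66 and 3.26 in WT, with Lum at 0. The 8 markers of differentiated lineages, 2 of them above the expression filter, summed to 2.49 and 2.34 in KO, against 3.33 and 3.34 in WT. Ratios are relative within each library. The yield of the precipitation was not analysed here, so a change shared by all transcripts cannot be told apart from library scaling.

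In the libraries labelled KO, many transcripts were far more covered in the IP than in the input. In the deposited scaling, the log2 ratio of IP to input per gene, log2((IP + 1)/(input + 1)) on mean window coverage, had a median of 0.08 and 0.13 in the KO pairs, against 0.29 and 0.27 in the WT pairs. It was at least 1 in 26.6% and 27.9% of genes in KO, against 31.9% and 32.3% in WT. Across the 11306 genes, Pearson's r of the ratio was 0.90 between the KO pairs, 0.89 to 0.93 between a KO and a WT pair and 0.97 between the WT pairs. These are descriptions across genes, which are not independent and share their transcript levels.

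Tested within KO alone, IP against input, 3321 genes were enriched and 4186 depleted (limma on log2(coverage + 1), each library centred on its median gene, adjusted p at most 0.05), which is 29.4% and 37.0% of the genes. The direction of a modest change depends on that centring. With the deposited scaling the median gene lay 0.31 higher and 4074 genes were enriched and 3083 depleted, so that 56.9% of the calls were enrichments, against 44.2% with centring. Centring on genes without a region in the earlier IP gave 5761 and 1455, or 79.8% enrichments. Leaving out KO input 1 gave 1656 enriched and 1738 depleted genes, and leaving out KO input 2 gave 1626 and 1622. Taken at the median window of each gene in place of the mean, 1341 genes were enriched and 276 depleted, or 82.9% enrichments. That setting also moves the centre, which raises every fitted difference by the same amount, before any difference between mean and median window. Snord64, of 1 window, stood at -4.64 with the mean and at -2.35 there.

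The highest enrichments in KO belonged to genes of varied function. Exosc6, a subunit of the RNA exosome, had a coverage of 356 and 355 in the KO IPs and 12.2 and 11.8 in the KO inputs, against 336 and 318 in the WT IPs and 10.4 and 11.3 in the WT inputs. All IP libraries lay far above all inputs, and KO and WT overlapped in their ratio. The fitted difference of IP over input in KO was 4.47 (log2, SE 0.09, adjusted p = 0.000574, limma). Pura, a purine-rich element binding protein, had 94.8 and 114 in the KO IPs and 3.91 and 3.78 in the KO inputs, against 99.3 and 144 in the WT IPs and 4.54 and 4.58 in the WT inputs. Again neither KO IP came near an input.

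Eid2, an inhibitor of EP300 and of differentiation, is one of the genes whose KO IP was above its WT IP. It had 180 and 156 in the KO IPs and 9.27 and 8.55 in the KO inputs, against 91.8 and 81.5 in the WT IPs and 8.35 and 8.51 in the WT inputs. Others among the 12 largest rises were Thap7, Jkamp, Mocs3, Fem1c, Fdx1l, Zfp809, NP_001170862 and uc008swg.1. Over all 12 the fitted rise was 3.67 (Zfp809) to 4.47 (Exosc6) on the log2 scale, with adjusted p of 0.000574 to 0.000704 (limma). Of the 12, 5 are single-exon genes in the files. For Jkamp the rise was not seen at the median window of the gene, where the fitted difference was -0.82 and did not pass the test, and for Fdx1l it was 1.28 there, which also did not pass (adjusted p = 0.0556, limma).

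The largest falls were mostly in small nucleolar RNA and microRNA genes. Snord49a, a small nucleolar RNA that guides ribose methylation, had 14.0 and 11.6 in the KO IPs and 363 and 293 in the KO inputs, against 31.3 and 5.68 in the WT IPs and 364 and 275 in the WT inputs. Its IP lay below its input in each pair of both genotypes, and the KO fit gave -4.88 (log2, SE 0.16, adjusted p = 0.000574, limma). The other 11 were Snord100, Snord12, Snord64, Mir291b, Mir5117, 3 copies of Mir684-1 whose counting can be shared (Mir684-1.2, Mir684-1.5 and Mir684-1.9), bartel:linc12, uc007pma.1 and uc007zbz.1. Their fitted differences ran from -4.46 (Mir684-1.2) to -5.39 (uc007zbz.1), with adjusted p of 0.000574 to 0.00784 (limma). The fall of uc007zbz.1 was not seen at its median window, where the fitted difference was 1.98 and did not pass the test. Part of that change is the centring, since Snord49a, of 2 windows, stood at -2.59 under the same setting.

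**Figure D1:**
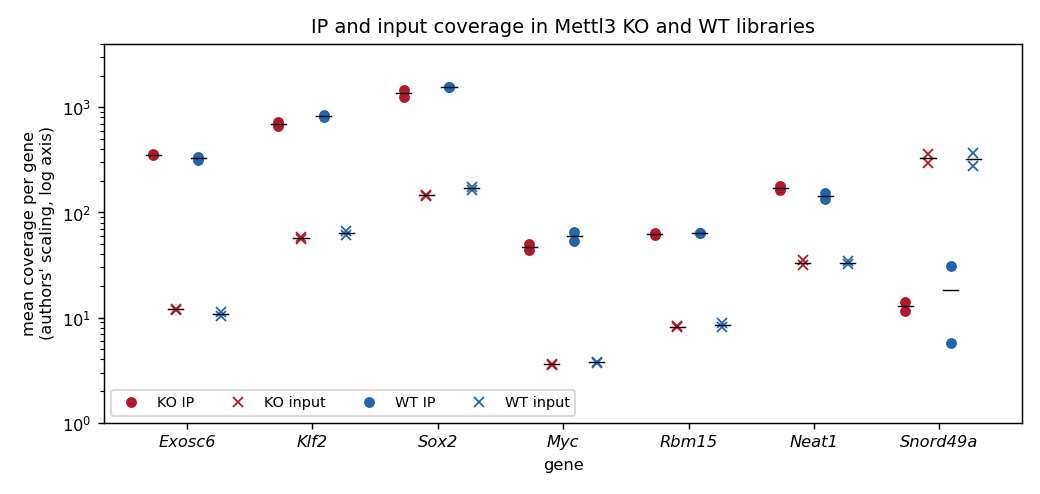
Mean coverage per gene (authors' scaling, log axis) of 7 genes in KO IP, KO input, WT IP and WT input, 1 point per library and a bar at the mean of the 2. In Exosc6, Klf2, Sox2, Myc, Rbm15 and Neat1 all IP points lie above all input points in both genotypes, and in Snord49a all lie below.

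Gene groups differed in how their members stood in the KO IP. Of 35 measured naive pluripotency genes, 19 (54.3%) were enriched in the KO IP, against 29.4% of all genes, 8 (22.9%) were depleted, against 37.0%, and the other 8 did not pass. The median fitted difference of the group was 0.39, against -0.22 over all genes. Its median ratio in the deposited scaling was 0.62 and 0.80 in KO, against 1.09 and 1.02 in WT. Klf2, a Krüppel-like factor of the naive state, had 727 and 660 in the KO IPs and 55.6 and 58.8 in the KO inputs, against 803 and 854 in the WT IPs and 61.1 and 66.4 in the WT inputs. The 2 KO IPs were both below the 2 WT IPs and more than 10 times their inputs. Sox2, a core pluripotency factor, had 1264 and 1453 in the KO IPs and 148 and 145 in the KO inputs, against 1547 and 1561 in the WT IPs and 162 and 176 in the WT inputs.

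Myc and Mycn, paralogous growth regulators, were both enriched. Myc had 44.1 and 50.2 in the KO IPs and 3.61 and 3.56 in the KO inputs, against 53.5 and 64.9 in the WT IPs and 3.73 and 3.78 in the WT inputs. The fitted rise in KO was 3.08 for Myc and 3.39 for Mycn (log2, adjusted p = 0.000574 and 0.000673, limma). Klf4, Klf5, Fgf4, Tbx3 and Gbx2 were also enriched in the KO IP, by 1.92 (Tbx3) to 2.84 (Klf5). Depleted members included Dppa5a, Dppa3 and Pou5f1, which encodes OCT4. Pou5f1 had 123 and 151 in the KO IPs and 252 and 248 in the KO inputs, against 133 and 119 in the WT IPs and 246 and 260 in the WT inputs. At its median window the fitted difference was 0.45, which did not pass, and the calls of Fgf4, Dppa5a and Dppa3 were also lost there, at 1.64, -1.26 and -0.48. The centring of that setting raises the values of all genes, so a lost depletion there is not a trait of these genes alone. Centring on genes without a region gave -0.27 for Pou5f1, which did not pass either. Nanog did not pass, at 0.22, but passed in the deposited scaling at 0.54 (adjusted p = 0.0296, limma) and with centring on genes without a region at 1.14 (adjusted p = 0.00385, limma). It had 256 and 207 in the KO IPs and 166 and 151 in the KO inputs, against 490 and 514 in the WT IPs and 198 and 206 in the WT inputs.

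Of 24 measured writers, erasers and readers of m6A, 10 (41.7%) were enriched in the KO IP, against 29.4% of all genes, and 10 (41.7%) were depleted, against 37.0%, with a median of -0.28 against -0.22 over all genes. Rbm15, which recruits the writer complex to RNA, had 61.3 and 64.5 in the KO IPs and 8.09 and 8.34 in the KO inputs, against 63.8 and 63.3 in the WT IPs and 8.89 and 8.08 in the WT inputs. All 4 IP values lay within a narrow range, well above the inputs. Rbm15b rose by 2.84, Ythdf2 by 1.98, Zc3h13 by 1.87 and Ythdf1 by 0.81 (log2, KO IP over KO input). Wtap, a regulatory subunit, rose by 1.77 in the KO IP. It had 79.9 and 91.8 in the KO IPs and 19.9 and 18.9 in the KO inputs, against 143 and 156 in the WT IPs and 16.97 and 17.96 in the WT inputs. Both KO IPs were thus below both WT IPs. Ythdc2, Mettl5, Fto and Mettl14 were depleted, at -1.70, -1.28, -1.13 and -0.81. Mettl3 did not pass, at -0.90 (SE 0.40, adjusted p = 0.108, limma), with 3.13 and 0.936 in the KO IPs and 3.14 and 3.38 in the KO inputs, against 3.41 and 3.36 in the WT IPs and 4.79 and 4.67 in the WT inputs. The sign of Mettl3 and Mettl14 turned with centring on genes without a region, and that of Ythdc2 and Mettl5 at the median window. Fto lost its call under both settings, at -0.22 and -0.52, as did Mettl5 with that centring (-0.36), Ythdf2 at the median window (1.22) and Mettl14 in the deposited scaling (-0.50, adjusted p = 0.127, limma).

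Mat2a, the methionine adenosyltransferase transcript that METTL16 methylates, was the only transcript listed here as a candidate for a METTL3-independent site. It had 124 and 110 in the KO IPs and 54.4 and 55.1 in the KO inputs, against 75.4 and 88.1 in the WT IPs and 50.3 and 54.4 in the WT inputs. Both KO IPs were above both WT IPs. The rise over input in KO was 0.77 (log2, SE 0.11, adjusted p = 0.00444, limma), and the IP to input ratio was 0.63 higher in KO than in WT, which did not pass (adjusted p = 0.313, limma). At the median window of the gene the fitted difference of KO IP over KO input was -0.23 and did not pass, and without KO input 1 the rise of 0.75 did not pass (adjusted p = 0.0534, limma).

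Immediate early genes, which code for transcription factors and phosphatases induced within minutes of a stimulus, were the list with the highest median apart from the 2 measured differentiated lineage markers. Of 17 measured, 15 (88.2%) were enriched in the KO IP, against 29.4% of all genes, and none was depleted, against 37.0%, with a median of 1.58. In the deposited scaling their median ratio was 1.71 and 2.07 in KO, against 2.06 and 2.22 in WT. Egr1, a zinc finger transcription factor, had 107 and 113 in the KO IPs and 13.0 and 12.8 in the KO inputs, against 54.8 and 58.9 in the WT IPs and 7.63 and 8.32 in the WT inputs. Its IP and input were both higher in KO, and the IP lay above the input throughout. Jun rose by 3.40 in the KO IP. Of 268 Zfp genes, most of which code for zinc finger proteins, 189 (70.5%) were enriched and 11 (4.10%) depleted, with a median of 1.06, and Zfp1 and Zfp830 rose by 3.21 and 3.11. At the median window Zfp830 was at 0.45 and did not pass (adjusted p = 0.381, limma). Among 36 Polycomb and chromatin regulators 18 (50%) were enriched and 11 (30.6%) depleted, with Cbx7, a reader of H3K27 trimethylation, at 1.62 (1.11 at the median window, which did not pass) and Rnf2, a ubiquitin ligase of Polycomb repressive complexes, at -1.88. Of 9 primed and formative pluripotency genes, 6 were enriched, among them Nodal and Pou3f1, and 3 were depleted.

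Genes of 3 housekeeping lists were mostly depleted in the KO IP. Of 81 cytosolic ribosomal protein genes, 76 (93.8%) were depleted, against 37.0% of all genes, and 1 was enriched, against 29.4%, with a median of -1.95. They were low in WT as well, with a median ratio in the deposited scaling of -1.71 and -1.55 in KO, against -1.92 and -2.20 in WT. Of 87 oxidative phosphorylation genes, 65 (74.7%) were depleted and 5 enriched, and of 17 glycolysis genes, 13 (76.5%) were depleted and 1 enriched, with Atp5a1 at -2.55 and Ldha at -2.35. At the median window, where the centring raises the values of all genes, neither passed, at -0.73 for Atp5a1 and -0.28 for Ldha. Of 66 replication-dependent histone genes, 43 (65.2%) were depleted and 2 enriched. Of 175 snoRNA and microRNA genes, 144 (82.3%) were depleted and 3 enriched. Mitochondrial ribosomal protein genes were close to the shares of all genes, with 23 of 76 (30.3%) enriched and 30 (39.5%) depleted. Among them Mrpl12 rose by 2.58, and by 1.89 at the median window, where it did not pass (adjusted p = 0.0559, limma). Cholesterol synthesis genes had 3 of 19 (15.8%) enriched and 6 (31.6%) depleted, the depleted share again near that of all genes.

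Long noncoding RNAs divided by locus. Neat1, the scaffold of paraspeckles, had 177 and 162 in the KO IPs and 35.1 and 31.6 in the KO inputs, against 152 and 134 in the WT IPs and 34.5 and 32.2 in the WT inputs. It rose by 2.00 in the KO IP (log2, adjusted p = 0.000676, limma), while the snoRNA host genes Gas5 and Snhg3 fell by 2.07 and by 2.19 on the same scale. Rmrp, the RNA of RNase MRP, fell by 3.35. These 3 falls did not pass at the median window, at -0.49 for Gas5, -0.63 for Snhg3 and -1.51 for Rmrp. The centring of that setting raises the values of all genes. Malat1 had 232 and 169 in the KO IPs and 117 and 99.5 in the KO inputs, and did not pass, at 0.56 (adjusted p = 0.0594, limma). It passed in the deposited scaling, at 0.87 (adjusted p = 0.0162, limma), and at an RPKM of at least 5, at 0.64 (adjusted p = 0.0382, limma). Of 113 lincRNAs named by the guttman:linc prefix, 46 (40.7%) were enriched and 16 (14.2%) depleted, against 29.4% and 37.0% of all genes.

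Enrichment in KO varied with gene structure. Of genes whose longest exon held 1 to 5 windows, 3.97% were enriched and 71.8% depleted, and of those with over 40 windows, 42.9% were enriched and 25.7% depleted. The share enriched was 47.2% in genes of 2 to 4 exons and 21.4% in genes of 20 or more, but genes of a single exon did not extend that order, with 26.3% enriched and 52.0% depleted. By transcript level, the 20% of genes with the highest RPKM had 17.0% enriched and 63.3% depleted, against 30.1% and 23.3% in the 20% with the lowest. Exon length and transcript level are related to each other, and their parts were not separated.

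Which genes and windows stayed enriched was then read against the earlier IP, which belongs to neither group. Genes with a log2 ratio of 3 or more in the earlier pair (122 genes) had a median ratio of 2.82 and 2.89 in the KO pairs, against 3.002 and 2.998 in the WT pairs. Genes between 1 and 2 in the earlier pair (1848 genes) had 1.37 and 1.46 in KO, against 1.62 and 1.64 in WT. Both KO medians were below both WT medians in each of the 4 bins above 0, and the gap of the group means was 0.14 to 0.25 in the deposited scaling. With each pair centred on its median gene the KO minus WT difference was -0.07 to 0.03 over these bins and above 0 in the upper 2, so its direction rests on the scaling. The increase across bins was much larger than either. Over windows the gap was wider. Windows at 3 or more in the earlier pair (19271) had a median of 3.52 and 3.69 in KO, against 3.86 and 3.91 in WT, and 84.5% and 89.6% of them were at 2 or more in KO, against 96.3% and 95.6% in WT. Windows from 0 to 1 had -0.63 and -0.08 in KO, against 0.35 and 0.19 in WT. Centred on the median window, KO minus WT was -0.37 for windows from 0 to 1 and -0.01 for windows at 3 or more.

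**Figure D2:**
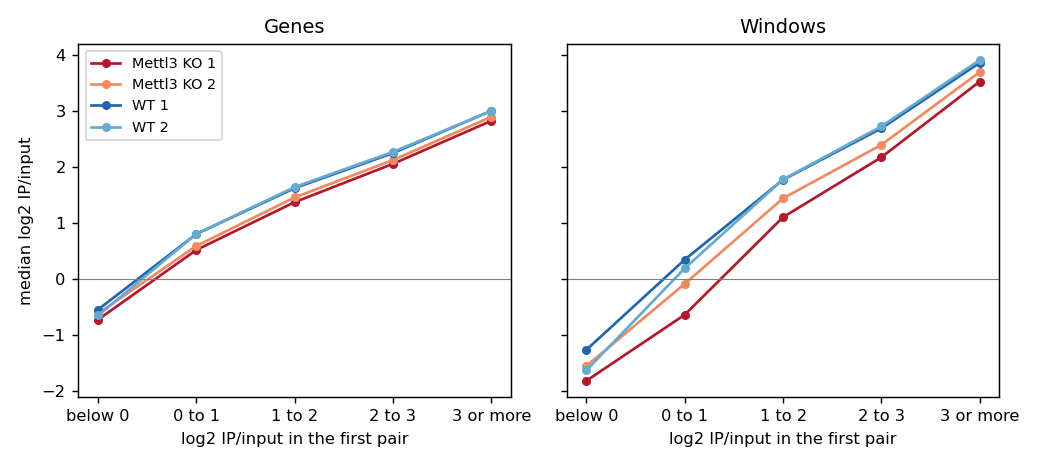
Median log2 ratio of IP to input (y axis) in KO pairs 1 and 2 and WT pairs 1 and 2, for genes (left) and windows (right) sorted by their log2 ratio in the earlier pair (x axis). The KO lines rise with the WT lines and lie a little below them from the second bin upward, by 0.14 to 0.25 for genes and by 0.27 to 0.63 for windows, in the deposited scaling. For genes in the upper 2 bins the order turned with centring.

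Per gene, the IP to input ratio could not be told apart between KO and WT after adjustment over all 11306 genes: limma, centred on the median gene, called 0 genes higher and 0 lower. At an unadjusted p under 0.05, 823 genes (7.28%) were higher and 684 (6.05%) lower in KO. With the deposited scaling these were 388 higher and 1384 lower, or 21.9% higher against 54.6% with centring. Without KO replicate 1 the adjusted test called 274 higher and 248 lower, and without KO replicate 2 it called 997 and 931. Without either WT replicate it called 0 and 0. With 1 KO pair left, its spread is assumed to be that of the WT pairs. In data simulated at this size, with 200 genes changed, the test recovered 68.5% of genes changed by 1 and 98.5% of genes changed by 2 on the log2 scale. Recovery after adjustment depends on the number changed. The simulation gave genes of the same level the same spread, so these shares may be too high.

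The genes with the smallest p, none of which passed, had ratios that did not overlap between genotypes. A choice by small p favours such genes, so the lack of overlap is no further support for them. Psma5, a subunit of the 20S proteasome, had 62.4 and 58.9 in the KO IPs and 39.4 and 43.8 in the KO inputs, against 16.5 and 15.8 in the WT IPs and 38.0 and 40.8 in the WT inputs. Its inputs overlapped between the genotypes, and its IP was above the input only in KO (difference of ratios 1.94, SE 0.24, adjusted p = 0.259, limma). Snord43 had 10.1 and 10.6 in the KO IPs, against 0.714 and 0 in the WT IPs (difference 3.55, adjusted p = 0.0961). The others of the 8 smallest p on the higher side were uc009jvz.1, Eid2, Kif7, NP_001104752, Hist1h2ak and uc007mts.1, with differences of 1.05 to 2.74.

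On the lower side, D8Ertd738e had 100 and 111 in the KO IPs and 31.2 and 32.1 in the KO inputs, against 208 and 233 in the WT IPs and 23.5 and 28.5 in the WT inputs. It was still 1.39 above input in the KO fit. F3, the tissue factor that starts coagulation, had 1.17 and 1.42 in the KO IPs and 3.20 and 3.92 in the KO inputs, against 3.78 and 3.83 in the WT IPs and 2.03 and 1.91 in the WT inputs. Its coverage was low in all libraries. Mir3068, Akr1b8, Pla2g12a, Mir5114, Mrps28 and Tmed1 made up the rest, with differences of -0.95 (Mir5114) to -1.94 (Mir3068). Taken at the median window in place of the mean, the difference of Eid2, uc007mts.1, Akr1b8 and Mrps28 had the opposite sign and did not pass. There Psma5 was at 0.27, uc009jvz.1 at 0.35, D8Ertd738e at -0.07 and F3 at -0.30, none of which passed. Snord43 (3.68), Hist1h2ak (1.55) and Mir3068 (-1.81) passed at the median window, and Snord43 and uc009jvz.1 passed with genes at an RPKM of at least 5. Snord43 has 1 window and Mir3068 has 2, so their median is their mean. For these genes the setting changes only the centring and the fit and is not a second view.

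At the level of single windows, a log2 ratio of 2 or more was reached by 9.52% and 9.95% of 628909 windows in KO, against 9.92% and 10.6% in WT. Windows needed a mean input coverage of at least 1. Both KO pairs reached it in 38521 windows and both WT pairs in 51476, and 32339 were shared, which is 84.0% of the KO windows and 62.8% of the WT windows. Of the windows at 2 or more in both WT pairs, 0.606% were below 0 in both KO pairs. Chosen in WT 1, 62358 windows were at 2 or more in 64.4% (KO 1) and 72.0% (KO 2) of cases, against 82.5% in WT 2, whose depth was close to that of the KO IPs. The KO pairs differed from each other as well. Windows chosen in KO 1 were held in KO 2 in 64.3% of cases, and those chosen in KO 2 were held in KO 1 in 61.6%. Pearson's r over windows was 0.69 between the KO pairs, 0.72 to 0.78 between a KO and a WT pair and 0.85 between the WT pairs. With each pair centred on its median window, the share of WT 1 windows held in both KO pairs was 63.7%, and 54.9% in the deposited scaling. Holding in both pairs asks more than a look-up in 1 pair. In the limma test of KO IP against KO input, 100211 of 616824 windows were enriched (16.2%) and 19384 depleted, and 9485 of 11286 genes had an enriched window. In data simulated in the same way, with 200 windows changed, this test recovered 0% of windows changed by 1 and 3.5% of windows changed by 2 on the log2 scale. With so few changed, the adjustment is stricter than in the data, so these shares do not describe the count of enriched windows. The count of enriched windows is not stable. It was 29560 without KO input 1, 28805 without KO input 2, 207555 without KO IP 1 and 231138 without KO IP 2. In the deposited scaling 55691 windows were enriched and 244833 depleted, so that 18.5% of calls were enrichments, against 83.8% with centring.

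Consecutive enriched windows formed runs in the KO libraries that were also high in WT. The median ratio of a run, in the deposited scaling, was 2.32 and 2.40 in KO, where the runs were chosen, against 2.39 and 2.41 in WT. Runs of at least 2 windows at a centred ratio of 2 or more in both KO pairs numbered 17440 in 7667 genes, with a median length of 3 windows and a maximum of 31. The median window, on which each pair was centred, lay at -1.44 and -1.12 in the KO pairs. A centred ratio of 2 is thus well below 2 in the deposited scaling, a lower bar than the one used above for single windows. The longest, in the last exon of Abl2, a non-receptor tyrosine kinase, had a mean coverage of 50.5 and 58.6 in the KO IPs and 3.45 and 3.54 in the KO inputs, against 66.7 and 71.2 in the WT IPs and 4.37 and 4.67 in the WT inputs. Its mean window ratio was 3.25 and 3.20 in KO, against 3.23 and 3.09 in WT. Rbm15 held a run of 30 windows at 2.97 and 2.85 in KO, against 2.78 and 3.11 in WT.

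The other 8 of the 10 longest runs were in Taf5l, Peg10, Tnrc6c, L1td1, Klf13, Fzd5, Sox12 and Irf2bpl. Peg10, paternally expressed and of retrotransposon origin, differed in level: its run had 529 and 431 in the KO IPs and 55.4 and 48.3 in the KO inputs, against 150 and 163 in the WT IPs and 15.7 and 16.3 in the WT inputs. The ratio did not follow that difference, at 2.79 and 2.72 in KO, against 2.74 and 2.84 in WT. Among genes with an RPKM of at least 10, the runs with the highest mean ratio were in Pfdn2, Jkamp, Hnrnpm, Crebzf, 6820431F20Rik.2, Gtf2i, Klf5, Wdr26, Cldn25 and Gtsf1l. Wdr26, a subunit of the CTLH ubiquitin ligase, had a run of 8 windows in its last exon at 5.51 and 5.01 in KO, against 5.19 and 5.08 in WT. Those of Pfdn2, Hnrnpm, Gtf2i and Gtsf1l begin in the first 2 windows of the gene. Hnrnpm, which codes for a splicing regulator, had a run of 3 windows at 5.83 and 5.66 in KO, against 3.17 and 4.40 in WT.

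The difference between KO and WT changed along the transcript. Position could be read in 8409 genes whose strand is known. In the first window of genes with at least 20 windows (2956 windows with enough input), the share at a log2 ratio of 2 or more was 20.6% and 21.7% in KO, against 8.05% and 12.3% in WT. It was 1.52% in the earlier IP. By the fifth window the shares were 5.03% and 4.55% in KO, against 2.92% and 3.91% in WT. The median ratio of first windows was 0.16 and 0.69 in KO, against -0.04 and 0.04 in WT. After centring on the median window the difference of KO over WT was 0.69, with no overlap (exact two-sided permutation test, p = 0.333, the smallest that 2 against 2 can give).

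Near the beginning of last exons the order was the reverse. In 4374 last exons of at least 20 windows, of genes with more than 2 exons, the share at 2 or more peaked at the sixth window in all 4 pairs. It was 28.6% and 31.7% there in KO, against 36.7% and 37.2% in WT. By the twentieth window it was 10.6% and 10.6% in KO, against 11.4% and 11.8% in WT. With each pair centred on its median window the sixth-window shares were 47.2% and 49.5% in KO, against 52.2% and 56.1% in WT, and at the twentieth window the genotypes overlapped. Over 217433 last exon windows of genes with more than 2 exons, the centred median was 0.05 and 0.14 in KO, against 0.30 and 0.24 in WT. The difference was -0.17 (exact two-sided permutation test, p = 0.333, the smallest possible). Long internal exons, of over 8 windows, had 23.6% and 27.2% of windows at 2 or more in KO, against 27.6% and 29.2% in WT. With centring these shares overlapped between the genotypes, at 43.2% and 46.0% in KO, against 43.6% and 50.8% in WT. So did those of all 227347 last exon windows, genes with 2 exons included, at 24.97% and 23.7% in KO, against 22.9% and 26.7% in WT. Internal exons of up to 5 windows were rarely enriched, with 1.54% and 1.28% in KO, against 0.398% and 0.661% in WT. Both KO shares were above both WT shares, also with centring, at 6.68% and 5.35%, against 1.44% and 3.55%. Other first exon windows, outside the first 2 of genes with at least 20 windows, were also higher. They had 10.98% and 11.6% in KO, against 7.79% and 9.69% in WT. A higher share in KO was thus not particular to the first 2 windows. Internal exons of 6 to 8 windows overlapped, at 5.24% and 6.01% in KO, against 5.36% and 6.23% in WT. Genes of a single exon had 16.3% and 17.2% in KO, against 16.2% and 17.7% in WT.

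**Figure D3:**
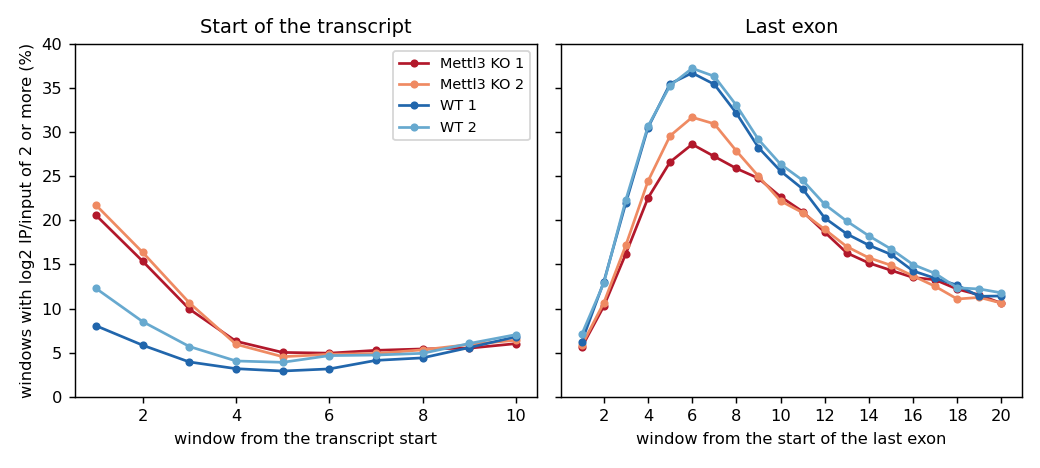
Share of windows with a log2 ratio of IP to input of 2 or more (y axis, percent) by window from the transcript start (left) and from the start of the last exon (right), 1 line per KO or WT pair. At the start both KO lines lie above both WT lines, at 20.6% and 21.7% against 8.05% and 12.3% in the first window, and at the peak in the last exon both lie below.

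Windows chosen in one pair and looked up in another kept this order. Of start windows (the first 2 of a transcript) at 2 or more in KO 1, 57.4% were so in KO 2, against 30.1% in WT 1 and 37.7% in WT 2. Of last exon windows at 2 or more in KO 1, 66.9% were so in KO 2, against 73.0% in WT 1 and 72.3% in WT 2. Start windows of the KO pairs recurred more often in the other KO pair than in WT, and last exon windows did not. Recurrence depends on the share at 2 or more in the pair looked up. Among all start windows it was 17.6% and 18.5% in KO, against 6.70% and 9.98% in WT. The look-up is therefore not separate support. Windows of internal exons of up to 5 windows chosen in KO 1 had the same order, at 24.8% in KO 2, against 15.4% in WT 1 and 18.2% in WT 2. Those of long internal exons had the reverse, at 71.3%, against 75.5% and 74.8%. In the other direction, start windows at 2 or more in WT 1 were held in 78.9% (KO 1) and 80.6% (KO 2) of cases, against 72.6% in WT 2.

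The contrast was also present within genes. In 3673 genes with both parts measured, the median difference of the start windows minus the last exon, in log2 ratio, was 0.21 and 0.40 in KO, against -0.54 and -0.36 in WT. The genotypes differed by 0.75 (exact two-sided permutation test, p = 0.333, the smallest possible), and library scaling cancels in this difference apart from the effect of the pseudocount. Both KO values were above both WT values in 39.8% of these genes and below in 6.70%. Depth and the share of windows at 0 also differed between the IPs, as given above, and their part in this result was not tested.

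Per gene, the mean of the first 2 windows was tested in 3790 genes. None passed after adjustment (limma, 0 higher and 0 lower in KO). At an unadjusted p under 0.05, 387 (10.2%) were higher and 29 (0.765%) lower in KO. In data simulated at this size, with 200 genes changed, the test recovered 0% of genes changed by 1 and 12.5% of genes changed by 2 on the log2 scale. These shares hold for that number changed only. Without KO replicate 1 it called 31 higher and 1 lower, without KO replicate 2 it called 138 and 12, without WT replicate 1 it called 5 and 1, and without WT replicate 2 it called 0 and 1. Both KO ratios lay above both WT ratios in 1217 genes (32.1%) and below in 388 (10.2%). Start windows reached 2 in both KO pairs in 374 genes and in both WT pairs in 170. The 139 genes shared are 37.2% of the first and 81.8% of the second.

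**Figure D4:**
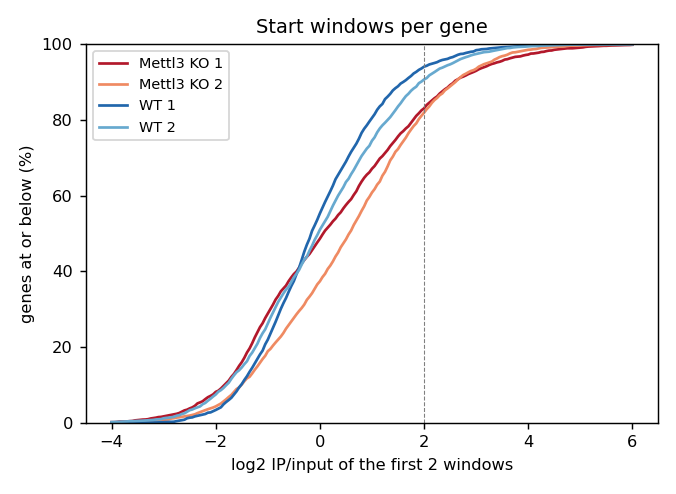
Cumulative share of 3790 genes (y axis, percent) by the log2 ratio of IP to input in their first 2 windows (x axis), 1 line per KO or WT pair; the dashed line marks a ratio of 2. To the right of 0 both KO lines run below both WT lines, so more genes have high ratios in KO.

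The start windows with the smallest p, although not past the test, and those with the highest KO ratio included genes of several classes. The windows have no coordinates here, so their place relative to an annotated start is not known. The sequences around the annotated start are given for 6 of these genes. They are 20 bases before and 10 bases from the start that RefSeq annotates in GRCm38.p6, in the sense of the transcript, and the capital marks the first transcribed base of that annotation, which need not be the start used by these cells. Psmd2 lies at chr16:20651632-20651661 on the plus strand, Klf4 at chr4:55532466-55532495 on the minus strand, Marveld1 at chr19:42147369-42147398 on the plus strand, Araf at chrX:20848523-20848552 on the plus strand, Hnrnpm at chr17:33685449-33685478 on the minus strand and Stk11 at chr10:80115775-80115804 on the plus strand.
Psmd2: gtctggaggacaacgcgcgtGgccttctgg
Klf4: agcgcgcggcggccgccggcAgttccccgg
Marveld1: aggggacggccaaagagcgaGtaggagggc
Araf: ccaatagcaaaaagcctaggGacggtggcg
Hnrnpm: ccgcacaaggaggcgttactGgtcgttcgg
Stk11: ccgttgcgacgtgcgacgacGgcgcggcgc

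Psmd2, a regulatory subunit of the proteasome, had the highest input of the 8 genes with the smallest p on the higher side. Its start windows had 771 and 598 in the KO IPs and 14.6 and 21.3 in the KO inputs, against 129 and 113 in the WT IPs and 22.3 and 18.9 in the WT inputs. The start ratio was 2.86 higher in KO (log2, SE 0.54, adjusted p = 0.255, limma), while the whole gene had a mean ratio of -0.29 in KO, against -1.23 in WT, in the deposited scaling. Hnrnpm had 505 and 562 in the KO IPs and 6.90 and 8.35 in the KO inputs, against 94.3 and 167 in the WT IPs and 7.62 and 5.65 in the WT inputs. In both genes both KO IPs were at least 3 times each WT IP.

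Klf4, a pluripotency factor whose gene mean was enriched in the KO IP, had start windows at 43.7 and 19.2 in the KO IPs and 1.15 and 0 in the KO inputs, against 7.38 and 4.34 in the WT IPs and 1.77 and 2.03 in the WT inputs. Its mean gene ratio was 2.99 in KO, against 3.11 in WT, in the deposited scaling, and with centring the gene ratio was 0.06 higher in KO, which did not pass (adjusted p = 0.888, limma). Araf, a kinase of the RAF family, had 254 and 251 in the KO IPs and 1.07 and 4.22 in the KO inputs, against 38.1 and 55.9 in the WT IPs and 1.48 and 1.21 in the WT inputs. Stk11, the kinase LKB1, was high in both: 850 and 674 in the KO IPs and 12.4 and 12.3 in the KO inputs, against 628 and 618 in the WT IPs and 12.9 and 10.1 in the WT inputs. Its ratio differed by 0.36 (SE 0.37, adjusted p = 0.697, limma). Stk30, Sfswap, Tubd1, Kdm2b, Marveld1 and 2510039O18Rik, also among the 8 smallest p, had start ratios 2.15 (Marveld1) to 4.84 (Stk30) higher in KO, on a mean input coverage of 1.04 to 3.64.

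The annotated start bases of these genes gave little separation. One RefSeq start was found for 3225 of the 3790 genes. Of the 820 that start with A, 16.7% and 17.1% had a start ratio of 2 or more in KO, against 5.49% and 9.02% in WT. Of the 1574 that start with G, these were 18.6% and 19.4% in KO, against 7.12% and 10.1% in WT. Starts with C or T had 12.9% to 17.0% in KO, against 4.10% to 7.23% in WT. An A start made up 26.6% of the 312 matched genes at 2 or more in both KO pairs and 25.4% of all 3225. The letters GGAC, part of the usual m6A motif, occurred in the first 50 transcribed bases of 18.3% of those 312 genes, 19.3% of the 3225 and 18.99% of the 22862 genes in the table, and their reverse complement GTCC in 15.1%, 20.4% and 17.0%. A match is only a description of these letters.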

How the data were processed

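Per the submitters' processing notes, reads were aligned with TopHat 1.1.3 to mm9. The deposited window tables give, per the file headers, IP and input coverage (a signal) per exon window, scaled by 1 unstated factor per library, and, for the earlier pair, a log2 winscore. RPKM was taken only from the deposited columns of the 2 WT inputs. How reads were counted, and on which strand, was not stated in the sources used here, so overlapping genes and close copies are uncertain. Ratios were log2((IP + 1)/(input + 1)). Tests used limma 3.58.1 (lmFit, eBayes with trend, Benjamini-Hochberg, 0.05) in R 4.3.3, checked on simulated data, and exact permutation tests (scipy 1.17.1, Python 3.11.15). Exon numbers follow the genome. Strand came from RefSeq symbols (21496 of 30419 gene names are current and 1675 older). The members, gene lists and tests were chosen with earlier results of these data known. Named genes are the 12 largest changes each way past the test, the 8 smallest p each way where none passed, the 10 longest and 10 highest runs, and members of fixed lists. Some genes that this rule names are not reported here. The start window tests, the genes named from them, and the centred bins and last exon shares were chosen after seeing the data. Each ratio joined the IP and the input of the same replicate number, which share a deposited window table. The replicate number was not a term in the tests (see the closing section). Gene names without a current symbol were kept as deposited.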

Additional observations from a re-analysis of the deposited data

Results flagged for a closer look

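In the within-gene difference of start windows minus last exon, both KO pairs lay above 0 and both WT pairs below it, a gap of 0.75 in log2 ratio, for which the exact test of 2 against 2 cannot go below p = 0.333. Among the genes named for their small p, the gene ratio was above 0 in both KO pairs and below 0 in both WT pairs for Snord43 (difference 3.55), Hist1h2ak (2.74), uc009jvz.1 (2.00), Psma5 (1.94) and uc007mts.1 (1.69). It was below 0 in both KO pairs and above 0 in both WT pairs for Mir3068 (-1.94), Akr1b8 (-1.70), F3 (-1.51) and Pla2g12a (-1.47). In start windows Tubd1 was above 0 only in KO (3.95), and Zfp637 (-3.26) and Atg14 (-2.78) were above 0 only in WT. With all libraries and the mean per gene, none of these genes passed the adjusted limma test of the difference. At an RPKM of at least 5, Snord43 (adjusted p = 0.0133, limma) and uc009jvz.1 (adjusted p = 0.0217, limma) passed, and at the median window Snord43, Hist1h2ak and Mir3068 passed. For Snord43, of 1 window, and Mir3068, of 2, the median is the mean, and only the centring and the fit differ. Those passing at the median window had adjusted p of 3.6e-13, 0.0352 and 0.00619 (limma). Psma5 was at 0.27 and uc009jvz.1 at 0.35 there. The sign of a ratio depends on library scaling. Over all genes, 108 of 11306 were above 0 in both KO pairs and below 0 in both WT pairs, and 384 the other way; in start windows it was 231 and 56 of 3790.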

How the results depend on the processing

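Each group had 2 libraries of a kind, and where the KO IPs had a coverage of 0, in 54.2% and 43.3% of the expressed windows, a depletion has only a bound. Enriched genes in KO numbered 5761 with centring on genes without a region, 1952 of 6629 at an RPKM of at least 5 and 1341 at the median window, and 1626 to 4318 with 1 KO library left out. Depleted genes numbered 1455 with that centring, 276 at the median window and 1622 to 5589 with 1 library left out. With 1 library of a kind left, its spread is assumed to be that of the other kind. Enriched windows numbered 55691 in the deposited scaling, 61446 at an input coverage of at least 5, 195071 with no coverage filter, 66747 at an RPKM of at least 5, and 28805 to 231138 with 1 library left out. For the KO minus WT ratio, limma called 2 genes higher at an RPKM of at least 5 (Snord43 and uc009jvz.1), and 37 higher and 39 lower at the median window. With 1 pair left out it called 0 to 997 higher and 0 to 931 lower, and 0 to 138 start windows higher. The share of WT 1 windows held in both KO pairs was 59.4% at a threshold of 1, 66.0% at 3, 54.9% in the deposited scaling, 66.1% with a pseudocount of 0.5, 73.5% at an input coverage of at least 5, and 53.9% when chosen in WT 2. The KO minus WT differences of first windows, last exon windows and start minus last exon kept their sign under the alternatives run, and with 1 pair left out ranged over 0.49 to 0.89, -0.22 to -0.13 and 0.66 to 0.85.

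Same-numbered libraries deviated together with a correlation of 0.04 (KO IP and input) and 0.03 (ratios), so the number was not a term in the main tests. The ratios still join the IP and input of the same number. The fit with a replicate block gave 3257 enriched and 4273 depleted genes and 102703 enriched windows, and, as without it, 0 genes higher or lower in the ratio and 0 higher in start windows. With the block Mettl3 (adjusted p = 0.0450, limma) and Malat1 (adjusted p = 0.00895, limma) passed in KO IP over KO input. At the median window the KO IP over input had the opposite sign for Jkamp (-0.82), uc007zbz.1 (1.98), Mat2a (-0.23), Ythdc2 (0.047), Mettl5 (0.19), Pou5f1 (0.45) and Rpl35a (0.62), as had the KO minus WT ratio of Eid2 (-0.26), uc007mts.1 (-0.56), Akr1b8 (0.35) and Mrps28 (0.038). Centring on genes without a region turned Mettl3 (0.011) and Mettl14 (0.11), and leaving out KO replicate 2 turned the ratio of Mettl3 to 0.58, against -0.64 without KO replicate 1. In KO IP 1 the coverage of Mettl3 was highest in exon 4, at 31.3, against 0.210 in KO IP 2. Centring has a part in these changes of sign. At the median window it raised KO IP over input in all genes, from -4.64 to -2.35 for Snord64, of 1 window. Jkamp and Mat2a went down there all the same. Centring on genes without a region moved the median gene up by 0.92. What else had a part was not tested. Of the other values of named genes under alternatives, 1038 kept direction and side of the threshold, 31 no longer passed and 74 newly passed.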
